A study of Mus musculus with 6 samples.

Results

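The matrix metalloproteinases (Mmp genes), the secreted proteases with thrombospondin repeats (Adamts genes) and the tissue inhibitors of metalloproteinases (Timp genes) were followed in colitis-associated tumors of mice with and without an induced Cre recombinase in myeloid cells. Members were all genes annotated as protein-coding whose name is Mmp, Adamts or Timp followed by a number, with or without a letter a or b. The rule found 45 of the 54532 genes listed, namely 22 Mmp, 19 Adamts and 4 Timp genes. RNA was sequenced from 3 tumor samples of Tmem173fl/fl mice (genotype WT in the labels) and 3 of Tmem173iΔmye mice (CRE) of the AOM+DSS-L groups. Mice of both groups carried Tmem173, the gene encoding STING, flanked by loxP sites, and received the carcinogen azoxymethane (AOM), 3 cycles of dextran sodium sulfate (DSS), which injures the colonic epithelium, and then tamoxifen (TAM) after tumors had formed. The groups differed in the Lyz2-CreERT2 transgene (spelled Lzym-Creert2 in the series text), which Tmem173iΔmye mice carried and Tmem173fl/fl mice did not. Lyz2 drives Cre in myeloid cells, and Cre acts there only after TAM, so the other cells of the tumor keep the floxed gene. Mice were on a C57BL/6N background, and the labels give neither age nor sex for these groups. The comparison addresses how the tumor changes when STING is removed from myeloid cells after tumors are present.

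Metalloproteinases cut the proteins outside the cell. Most Mmp enzymes are made as inactive precursors, secreted or held at the membrane, and cut open by other proteases. Collagenases cleave fibrillar collagen, gelatinases cut denatured collagen and basement membrane collagen, stromelysins cleave proteoglycans and activate other Mmp precursors, and membrane-type enzymes work at the cell surface. Adamts enzymes trim procollagens and cut large proteoglycans such as aggrecan and versican. Timp proteins occupy the active site of these proteases. In the inflamed intestine, stromelysins and collagenases are known as products of fibroblasts and wound-edge epithelium that inflammatory cytokines and the transcription factor AP-1 induce, and Mmp7 is the protease that activates α-defensins in Paneth cells.

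A run of 9 Mmp genes lies side by side on chromosome 9 of GRCm38, between 7272514 and 7699585, in the order Mmp13, Mmp12, Mmp1b, Mmp3, Mmp10, Mmp8, Mmp27, Mmp20 and Mmp7. This stretch of 427 kb holds 13 listed genes, of which 9 are protein-coding, and all of those are Mmp genes. The AP-1 core sequence TGANTCA, which is its own reverse complement and so was found on both strands at once, was searched in the 250 bases before each start site given by RefSeq (GRCm38.p6). No other motif was searched. Windows were found for 31 of the 45 members, and 7 of them (22.6%) held the sequence, against 2113 of 27025 genes (7.82%) overall. All 7 belong to the chromosome 9 cluster, where 7 of 9 genes (77.8%) held it, and 0 of 10 Adamts and 0 of 4 Timp genes did. The 7 were Mmp3, Mmp7, Mmp10, Mmp12, Mmp13, Mmp1b and Mmp20, and the windows of Mmp8 and Mmp27 did not contain these letters. The 120 bases before the start are shown for the 3 tested cluster genes with the largest fold changes and for Mmp7, the most abundant member, with the match in capitals, 5′ to 3′ on the plus strand.
Mmp3, chr9:7445702-7445821: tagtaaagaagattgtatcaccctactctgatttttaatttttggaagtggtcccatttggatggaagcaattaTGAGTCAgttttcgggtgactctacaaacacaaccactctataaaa
Mmp10, chr9:7502222-7502341: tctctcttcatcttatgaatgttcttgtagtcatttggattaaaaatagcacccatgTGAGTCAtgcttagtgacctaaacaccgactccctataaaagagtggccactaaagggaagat
Mmp13, chr9:7272394-7272513: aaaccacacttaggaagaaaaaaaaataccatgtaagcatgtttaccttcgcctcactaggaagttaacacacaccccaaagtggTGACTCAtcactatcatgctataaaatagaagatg
Mmp7, chr9:7691970-7692089: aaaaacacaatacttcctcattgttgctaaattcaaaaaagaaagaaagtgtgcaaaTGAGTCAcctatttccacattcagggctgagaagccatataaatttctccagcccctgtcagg
The match begins 46 bases before the start of Mmp3, 63 before that of Mmp10, 35 before that of Mmp13 and 63 before that of Mmp7. RefSeq gives Mmp7 another start further downstream, whose window does not hold the match. For Mmp12 only the window of a downstream start holds it, and that of the upstream start does not. A gene was counted when any of its windows held the sequence. A match is a description of the letters, and binding of AP-1 was not measured.

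Libraries held 15329810 to 16533732 reads assigned to genes. Expression was compared as reads counted per gene, tested with edgeR's quasi-likelihood test, and levels are given as FPKM, reads scaled to gene length and to library size. A log2 fold change is always Tmem173iΔmye over Tmem173fl/fl. The test took in the 16426 genes whose mean over the 6 tumors reached 0.5 FPKM, and 31 members were among them. The labels do not say that each tumor came from its own mouse, so p-values measure the spread between these samples. Tmem173 itself had 1748, 2911 and 1705 counts in Tmem173fl/fl replicates 1, 2 and 3 and 2291, 2245 and 1953 in Tmem173iΔmye replicates 1, 2 and 3 (log2 fold change 0.00), so whole-tumor RNA did not separate the genotypes at the targeted gene. Y-linked genes had 2655 to 3547 counts in 1 Tmem173fl/fl tumor (replicate 1) and 2 Tmem173iΔmye tumors (replicates 1 and 2), against 2 or fewer elsewhere, so the sexes were unevenly spread. Epithelial markers, among them Epcam and Vil1, were detected in every tumor with a summed FPKM of 5785 to 7200. In RNA from whole tumors, fewer cells of a type and less RNA per cell cannot be told apart.

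Neither the proteases nor their inhibitors differed between the groups beyond the error allowed for 16426 tests. With Benjamini-Hochberg adjustment, 0 of 31 members had an adjusted p under 0.05 (smallest 0.742), and the same held for all genes tested (0%, 0 of 16426), of which 1008 had an unadjusted p of at most 0.05. By DESeq2, 28 genes and 0 members had an adjusted p below that level. The study's limits were a log2 fold change of 1 or more in either direction with an unadjusted p of at most 0.05. By these, 0 of 31 members were higher, against 1.26% of all genes, and 0 were lower, against 0.864%. One member, Mmp10, had an unadjusted p of at most 0.05, which is 3.23% of the members against 6.14% of all genes. The groups did not overlap for 1 tested member, Mmp25, which was higher in every Tmem173iΔmye tumor, 3.23% of the members against 6.14% of all genes. Mmp25 averaged 0.519 FPKM and passed the limit of 0.5 only through the Tmem173iΔmye group (0.703, against 0.334 in Tmem173fl/fl). Its separation, and its place among the DESeq2 calls below, are therefore descriptions alone. No tested member was lower in every Tmem173iΔmye tumor, against 6.31%. With DESeq2 the order turned around: 2 of 31 members (6.45%), Mmp3 and Mmp25, were higher past the limits, against 1.29% of all genes, and 4 of 31 (12.9%), with Mmp10 and Mmp13 added, had an unadjusted p of at most 0.05, against 6.65%. Log2 fold changes were above 0 for 21 of 31 members (67.7%) and for 8111 of 16426 genes (49.4%), and their medians were 0.14 and 0.00. By family, 11 of 16 Mmp genes (median 0.15), 8 of 11 Adamts genes (median 0.21) and 2 of 4 Timp genes (median -0.02) were above 0.

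**Figure D1:**
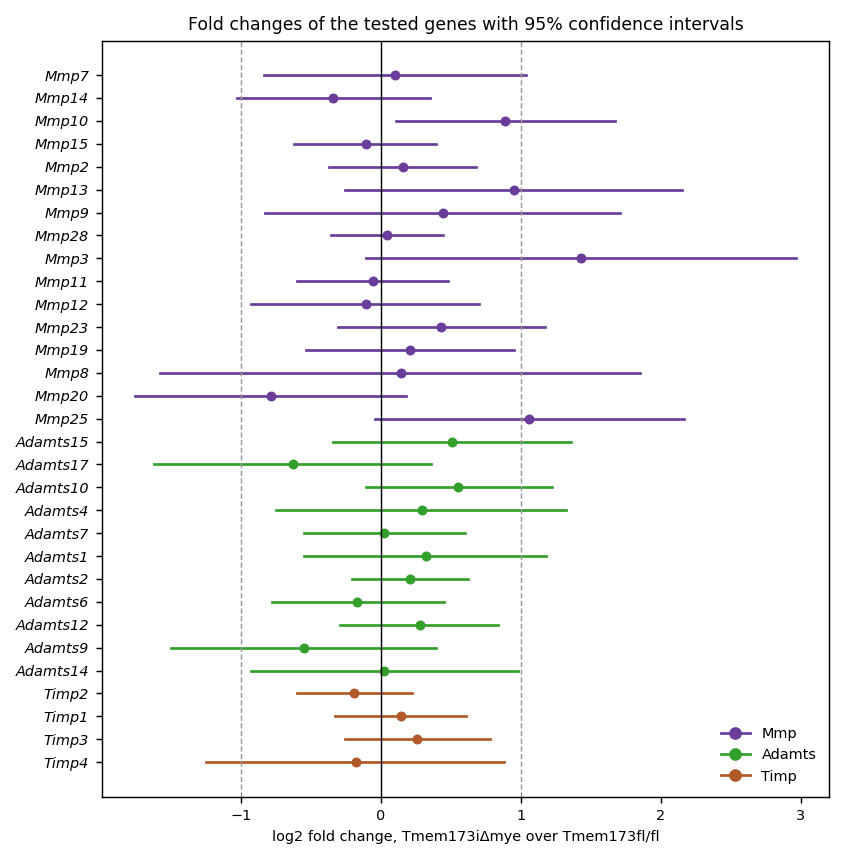
Log2 fold change of each of the 31 tested members, Tmem173iΔmye over Tmem173fl/fl (horizontal axis), with its 95% confidence interval from edgeR; dashed lines mark log2 fold changes of -1 and 1. Mmp10 is the one gene whose interval, 0.11 to 1.67, does not reach 0, and the Timp1, Timp2 and Timp3 intervals are among the narrowest.

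The members varied more from tumor to tumor than the median gene did. Taken over both groups together, the fold between the highest and the lowest of the 6 tumors had a median of 2.44 over the tested members and 1.71 over all genes tested. It was 2.67 for Mmp, 2.6 for Adamts and 1.72 for Timp genes. It reached 10.6 for Mmp3, 6.26 for Mmp25, 6.2 for Mmp8 and 5.24 for Mmp13, and was lowest for Mmp28 at 1.33, Adamts2 at 1.4 and Timp1 at 1.47. Members and all genes were not matched for level, and Mmp25 and Mmp8 had at most 87 and 63 counts in a tumor. The part of low counts in these folds was not tested. Tmem173fl/fl replicate 3 held the highest value of 10 members (32.3%), against 18% of all genes, and Tmem173iΔmye replicate 1 that of 8 members (25.8%), against 25.2% of all genes. Those 8 were Mmp3, Mmp7, Mmp8, Mmp10, Mmp13, Adamts1, Adamts10 and Timp1.

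**Figure D2:**
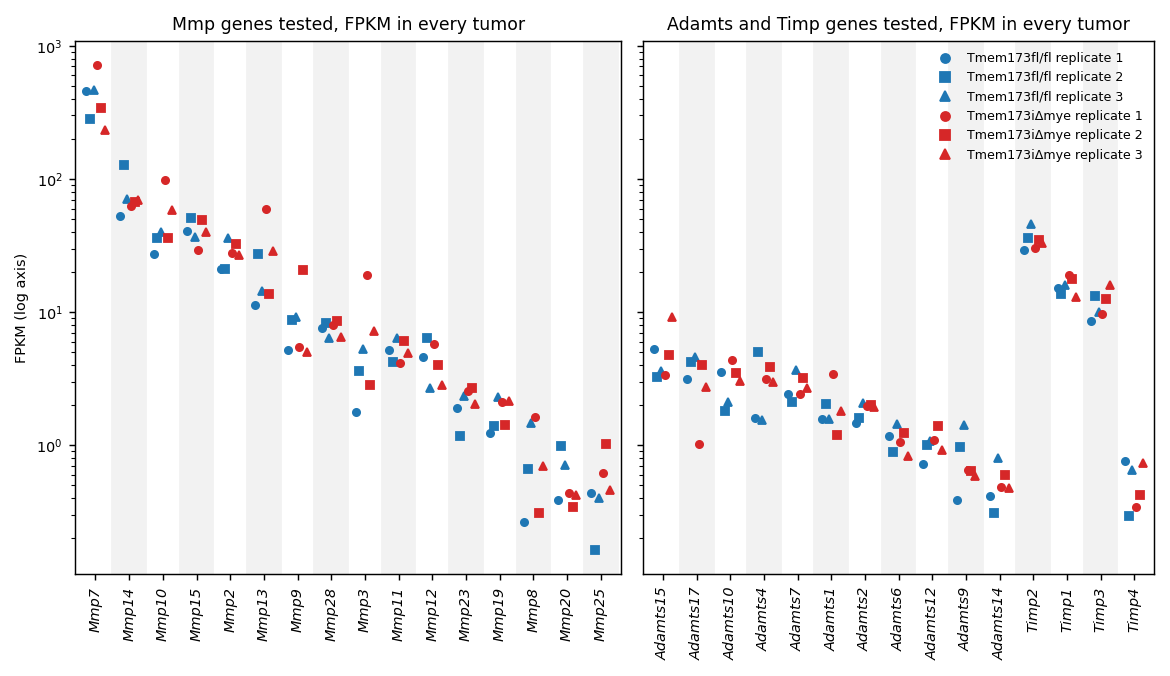
FPKM (log axis) of every tested member in each of the 6 tumors, Tmem173fl/fl in blue and Tmem173iΔmye in red, with one symbol per replicate number and genes ordered by mean level within each family. Mmp7 stands above every other member at 235 to 718 FPKM, no Adamts gene passes 9.18 FPKM, and red and blue points interleave for each gene except Mmp25.

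Mmp7, the matrilysin, was the most abundant member in each tumor and ranked 63rd of all genes by mean FPKM. It lies on the plus strand of chromosome 9, from 7692090 to 7699585. It had 7629, 4480 and 8313 counts in Tmem173fl/fl replicates 1, 2 and 3 and 12184, 5797 and 3958 in Tmem173iΔmye replicates 1, 2 and 3. The Tmem173iΔmye group held both the highest and the lowest tumor. The means were 401 ± 104 and 431 ± 254 FPKM (SD, n = 3 each), and the log2 fold change was 0.10 (95% confidence interval -0.84 to 1.04). Without Tmem173iΔmye replicate 1 it was -0.49. Mmp7 alone made up 47.8% to 71.5% of the summed FPKM of all Mmp genes in a tumor. Paneth cell markers, the lysozyme gene Lyz1 and α-defensin genes among them, had summed FPKM of 836 to 3606 in Tmem173fl/fl and 937 to 2643 in Tmem173iΔmye tumors, none of the 7 was at 0 in any tumor, and 2 of 7 had log2 fold changes above 0 (median -0.75). The highest of these sums was in Tmem173fl/fl replicate 1 and the highest Mmp7 level in Tmem173iΔmye replicate 1; the part of Paneth cells in the Mmp7 level was not tested.

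Among the stromelysins, Mmp10 (stromelysin-2) had the lowest p-value of all members. Its counts were 733, 932 and 1154 in Tmem173fl/fl replicates 1, 2 and 3 and 2683, 992 and 1577 in Tmem173iΔmye replicates 1, 2 and 3. Replicates 1 and 3 of Tmem173iΔmye lay above all Tmem173fl/fl tumors, and replicate 2 fell among them on the FPKM scale. The means were 34.5 ± 6.53 and 64 ± 31.5 FPKM (SD, n = 3 each). The log2 fold change was 0.89 (SE 0.34, 95% confidence interval 0.11 to 1.67), with an unadjusted p of 0.0303 and an adjusted p of 0.742 from edgeR. Without Tmem173iΔmye replicate 1 it was 0.45 (unadjusted p = 0.115), and with limma on log2(FPKM + 1) the unadjusted p was 0.0703. Mmp3 (stromelysin-1), from 7445822 to 7455975 on the plus strand, lies upstream of Mmp10, from 7502352 to 7510240. Mmp3 had 50, 97 and 161 counts in Tmem173fl/fl replicates 1, 2 and 3 and 541, 82 and 205 in Tmem173iΔmye replicates 1, 2 and 3. The highest and next highest values were in Tmem173iΔmye replicates 1 and 3, and replicate 2 lay inside the Tmem173fl/fl range. Its log2 fold change of 1.43 was the largest of the tested members (SE 0.67, interval -0.11 to 2.97, unadjusted p = 0.0649 from edgeR), and was 0.49 without Tmem173iΔmye replicate 1. Of the 50-base stretches in the Mmp3 transcripts, 8.39% also occur in Mmp10, and 8.37% of those in Mmp10 occur in Mmp3, so a small share of reads could belong to either gene. The third stromelysin, Mmp11, which fibroblasts around tumors are known to make, ranged from 4.15 to 6.42 FPKM with a log2 fold change of -0.06.

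The collagenase Mmp13, from 7272514 to 7283331 on the plus strand, had 473, 1089 and 645 counts in Tmem173fl/fl replicates 1, 2 and 3 and 2522, 592 and 1216 in Tmem173iΔmye replicates 1, 2 and 3. As for Mmp3 and Mmp10, Tmem173iΔmye replicate 1 was highest and Tmem173fl/fl replicate 1 lowest, and the groups overlapped. The log2 fold change was 0.95 (SE 0.52, interval -0.26 to 2.15), and 0.28 without Tmem173iΔmye replicate 1. Mmp8, the neutrophil collagenase, had 10 to 60 counts in Tmem173fl/fl and 12 to 63 in Tmem173iΔmye tumors (log2 fold change 0.14, interval -1.58 to 1.85). Mmp1b, one of the mouse counterparts of collagenase-1, had at most 3 counts in a tumor. Of the 50-base stretches in its transcripts, 11.8% also occur in Mmp1a, which is not among the members, so some reads could belong to either gene. The log2 fold change of Mmp8 was -0.67 without Tmem173iΔmye replicate 1 and 0.94 without Tmem173fl/fl replicate 3, so its direction could not be read. At 3 counts or fewer, no difference in Mmp1b was detectable.

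Within the chromosome 9 cluster, 7 of 9 genes were tested, and 5 of these had log2 fold changes above 0 with a median of 0.14. Among the Mmp genes elsewhere the numbers were 6 of 9 tested and 0.16. Across the 6 tumors, log2(FPKM + 1) of Mmp3 and Mmp10 had a Pearson r of 0.98, Mmp10 and Mmp13 of 0.91, and Mmp3 and Mmp13 of 0.89. The other tested genes of the cluster followed Mmp10 less closely, with r of 0.72 for Mmp8, 0.38 for Mmp7, 0.10 for Mmp12 and -0.17 for Mmp20. Mmp8 had an r of 0.83 to Mmp3, near the 0.89 of Mmp3 and Mmp13, and of 0.61 to Mmp13. These r describe 6 libraries that share genotype, depth and tissue makeup, and carry no test. Over all genes tested, the profiles most like that of Mmp10 were those of Qsox2 (r = 0.995), Fam50a (0.988) and Mmp3 (0.985). Mmp12, the macrophage elastase, had 2.69 to 6.39 FPKM in Tmem173fl/fl and 2.83 to 5.74 in Tmem173iΔmye tumors (log2 fold change -0.11, interval -0.93 to 0.70). Mmp20, the enamel protease, lay near the lower limit of the test at 18 to 49 counts, with a log2 fold change of -0.79 (interval -1.76 to 0.18). Its mean levels were 0.698 FPKM in Tmem173fl/fl and 0.402 in Tmem173iΔmye tumors. Mmp20 thus entered the test only through the group where it was higher, and its direction is a description alone.

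**Figure D3:**
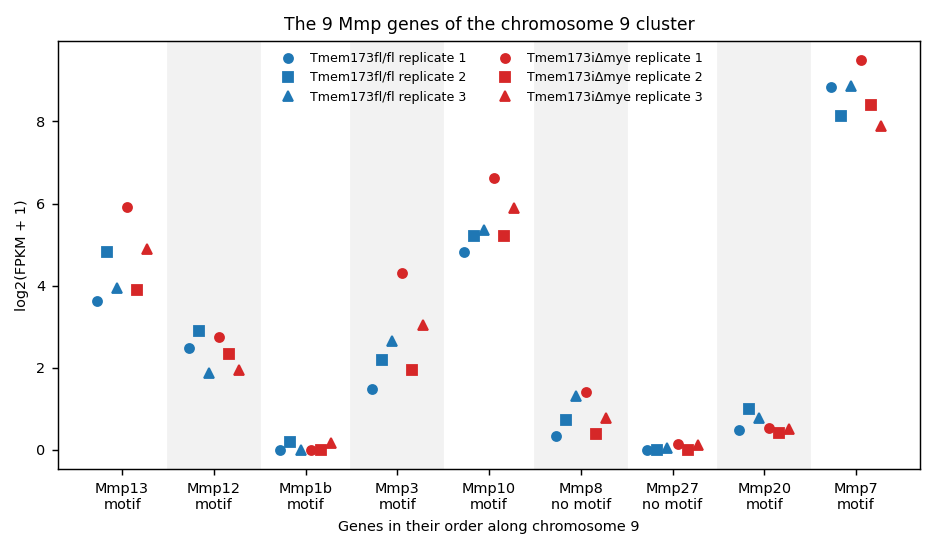
Log2(FPKM + 1) of the 9 Mmp genes of the chromosome 9 cluster in each tumor, in their order along the chromosome, Tmem173fl/fl in blue and Tmem173iΔmye in red; the word under each gene says whether a RefSeq window of 250 bases before the start held the AP-1 core sequence. Levels of neighbours differ widely, from at most 0.138 FPKM for Mmp1b to 718 for Mmp7, and the red circle, Tmem173iΔmye replicate 1, is highest for Mmp13, Mmp3, Mmp10, Mmp8 and Mmp7.

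Several cytokine and neutrophil genes were also highest in Tmem173iΔmye replicate 1. Of 14 tested genes from a list of cytokines, AP-1 subunits and Ets factors that induce metalloproteinases, 9 had log2 fold changes above 0 (median 0.43), and 4 (28.6%, against 1.26% of all genes) passed the study's limits, all higher. The list was chosen with earlier results of these data known, so its shares are descriptions and no test. Summed FPKM of the list overlapped, at 435 to 503 in Tmem173fl/fl and 462 to 522 in Tmem173iΔmye tumors. The 4 genes past the limits were Il17a, Il1b, Osm and, named after its values were seen, Il11. Il1b, which encodes interleukin-1β, had 320, 280 and 277 counts in Tmem173fl/fl replicates 1, 2 and 3 and 1743, 518 and 352 in Tmem173iΔmye replicates 1, 2 and 3 (log2 fold change 1.56, unadjusted p = 0.0219 from edgeR). Il17a, the cytokine of Th17 cells, had 9, 9 and 8 counts against 61, 56 and 10 in the same order (log2 fold change 2.25, unadjusted p = 0.01 from edgeR). Its levels were 0.492, 0.514 and 0.407 FPKM in Tmem173fl/fl and 3.28, 2.99 and 0.541 FPKM in Tmem173iΔmye tumors. Il17a thus passed the mean of 0.5 FPKM only through the Tmem173iΔmye group. Its separation, 9 against 10 counts at the nearest, and its part in the shares of this list are descriptions alone. Osm, encoding oncostatin M, had 16 to 37 counts against 43 to 147 (log2 fold change 1.67, unadjusted p = 0.0227). The groups did not overlap for these 3 genes (21.4% of the list, against 6.14% of all genes), and the adjusted p was 0.742 or more for each gene tested.

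Neutrophil markers had summed FPKM of 131 to 261 in Tmem173fl/fl and 134 to 561 in Tmem173iΔmye tumors. The highest sum was in Tmem173iΔmye replicate 1, where 6 of the 10 markers peaked. That tumor was also highest for 6 of 10 epithelial, 5 of 8 endothelial and 5 of 10 macrophage markers and for 25.2% of all genes tested. Among the neutrophil markers, 5 of the 7 tested markers had log2 fold changes above 0 (median 0.64), none with an unadjusted p of at most 0.05. Mpo and Camp, which mark neutrophil precursors, were at 0 in at least 1 tumor, and no marker was at 0 in all. S100a9, a calprotectin subunit, had 2181 counts in Tmem173iΔmye replicate 1 and 150 to 540 in the other tumors, whereas Ltf, encoding lactoferrin, was highest in Tmem173fl/fl replicate 2 with 2611. Macrophage markers had sums of 399 to 624 and 390 to 670 FPKM, none at 0 in any tumor, and 7 of 10 had log2 fold changes above 0 (median 0.25). The part of these cells and cytokines in the levels of Mmp3, Mmp10 and Mmp13 was not tested.

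**Figure D4:**
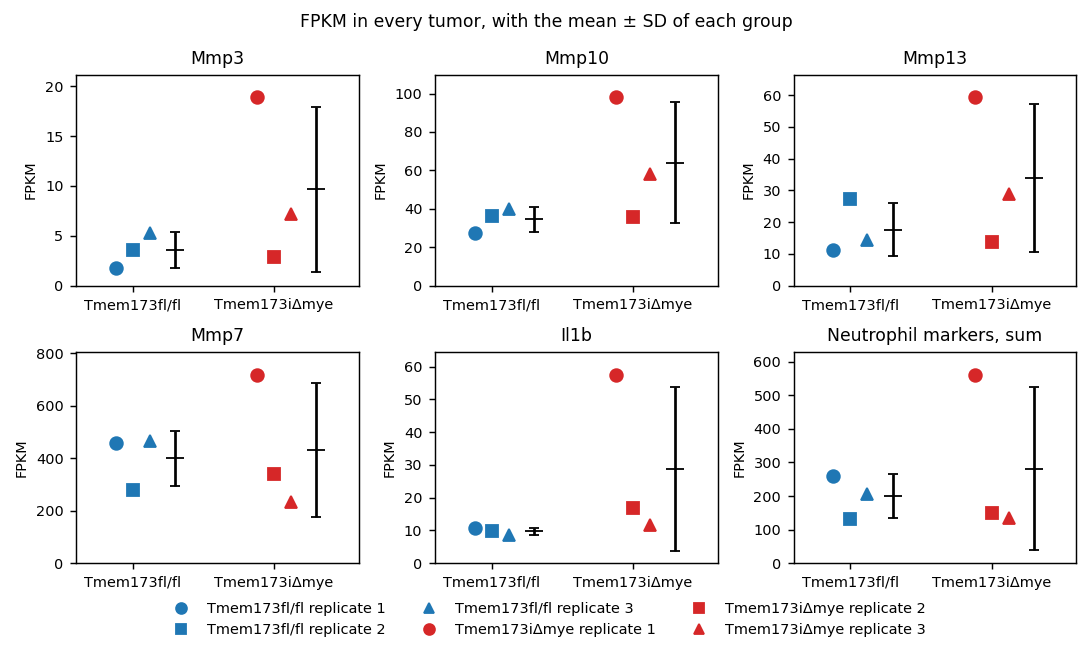
FPKM of Mmp3, Mmp10, Mmp13, Mmp7 and Il1b and summed FPKM of 10 neutrophil markers in each tumor, with the mean ± SD of each group (n = 3) in black. Tmem173iΔmye replicate 1 is highest in all 6 panels, at 98.1 FPKM for Mmp10 and 561 FPKM for the markers, and Tmem173iΔmye replicate 2 lies within the Tmem173fl/fl range for each of them except Il1b.

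The gelatinases showed no common pattern. Mmp2, made mainly by fibroblasts, had 1110, 1063 and 2054 counts in Tmem173fl/fl replicates 1, 2 and 3 and 1494, 1760 and 1439 in Tmem173iΔmye replicates 1, 2 and 3, with a log2 fold change of 0.16 (interval -0.37 to 0.68). Tmem173fl/fl replicate 3 was highest, and the other tumors of that group were lowest. Mmp9, which neutrophils and macrophages release, had 287, 464 and 550 counts against 305, 1186 and 283 in the same order (log2 fold change 0.44, interval -0.83 to 1.71). Its high value was in Tmem173iΔmye replicate 2, not in replicate 1, and without that tumor the log2 fold change was -0.56.

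At the cell surface, Mmp14 (MT1-MMP) was the most abundant membrane-type enzyme. With Timp2 as its adaptor, Mmp14 is known to cut the Mmp2 precursor open. Mmp14 had 4919, 11431 and 7094 counts in Tmem173fl/fl replicates 1, 2 and 3 and 5899, 6386 and 6549 in Tmem173iΔmye replicates 1, 2 and 3. The Tmem173fl/fl tumors spread from the lowest to the highest value (84 ± 39.3 FPKM, SD, n = 3), whereas the Tmem173iΔmye tumors lay close together (66.3 ± 3.67, n = 3). The log2 fold change was -0.34 (interval -1.03 to 0.35) and became 0.09 without Tmem173fl/fl replicate 2. Mmp15 (MT2-MMP) had 3433, 4133 and 3318 counts in Tmem173fl/fl replicates 1, 2 and 3 and 2493, 4286 and 3416 in Tmem173iΔmye replicates 1, 2 and 3 (log2 fold change -0.11, interval -0.62 to 0.39). Tmem173iΔmye replicate 1 was lowest, and the groups overlapped.

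Mmp25 (MT6-MMP), an enzyme of leukocytes and above all of neutrophils, lies on the minus strand of chromosome 17, from 23628311 to 23645277. It had 36, 13 and 36 counts in Tmem173fl/fl replicates 1, 2 and 3 and 52, 87 and 39 in Tmem173iΔmye replicates 1, 2 and 3. Every Tmem173iΔmye tumor was above every Tmem173fl/fl tumor, by 36 against 39 counts at the nearest. The log2 fold change was 1.06 (SE 0.48, interval -0.04 to 2.17, unadjusted p = 0.0578 from edgeR). Mean levels were 0.334 FPKM in Tmem173fl/fl and 0.703 in Tmem173iΔmye tumors, so Mmp25 entered the test only through the group where it was higher. Its highest tumor was Tmem173iΔmye replicate 2, as for Mmp9, whereas the sum of the neutrophil markers was 149 FPKM in that tumor and highest in replicate 1. Without replicate 1 the log2 fold change of Mmp25 was 1.14, and without replicate 2 it was 0.68.

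The other tested Mmp genes were low. Mmp28, also called epilysin, was among the steadiest members at 6.39 to 8.52 FPKM (log2 fold change 0.04). Mmp23 ranged from 1.17 to 2.7 FPKM (0.43, interval -0.31 to 1.17) and Mmp19 from 1.23 to 2.31 FPKM (0.21, interval -0.54 to 0.95). Of the exonic bases of Mmp19, 22.3% overlap Tmem198b on the opposite strand, and 12% of those of Mmp28 overlap 1700020L24Rik. The strand setting of the counting was not given, so reads in these stretches cannot be assigned with certainty.

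The Adamts genes were expressed far below the Mmp genes. Their summed FPKM was 23.1 to 25 in Tmem173fl/fl and 23.8 to 28.5 in Tmem173iΔmye tumors. Of the 11 tested, none had an unadjusted p of at most 0.05. Among the proteoglycanases, Adamts15 was the most abundant, with 861, 502 and 631 counts in Tmem173fl/fl replicates 1, 2 and 3 and 557, 793 and 1502 in Tmem173iΔmye replicates 1, 2 and 3. The high value was in Tmem173iΔmye replicate 3 (log2 fold change 0.51, interval -0.34 to 1.36). Adamts4 (aggrecanase-1) had 121, 363 and 125 counts against 239, 298 and 226 in the same order. Tmem173fl/fl replicate 2 alone was above the Tmem173iΔmye tumors (log2 fold change 0.29, interval -0.75 to 1.32, unadjusted p = 0.538 from edgeR). Without that tumor the log2 fold change was 1.07 (adjusted p = 0.745 from edgeR), and it was 0.01 to 0.36 when any other tumor was left out. Adamts1 ranged from 1.2 to 3.46 FPKM (log2 fold change 0.32), again highest in Tmem173iΔmye replicate 1, and Adamts9 from 0.391 to 1.41 FPKM (log2 fold change -0.55, interval -1.50 to 0.39).

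The procollagen N-proteinase Adamts2, which trims fibrillar procollagens, was steady, at 1.72 ± 0.312 and 1.98 ± 0.0349 FPKM (SD, n = 3 each), with a log2 fold change of 0.21 (interval -0.21 to 0.62). Adamts14, of the same kind, had 24 to 70 counts and a log2 fold change of 0.02. Adamts10, which binds fibrillin microfibrils, had 301, 147 and 192 counts in Tmem173fl/fl replicates 1, 2 and 3 and 380, 305 and 263 in Tmem173iΔmye replicates 1, 2 and 3. Only Tmem173fl/fl replicate 1 overlapped the Tmem173iΔmye range (log2 fold change 0.55, SE 0.29, interval -0.11 to 1.22). Adamts17 had 382, 488 and 604 counts against 127, 496 and 334 in the same order. Here Tmem173iΔmye replicate 1, the tumor with the highest Mmp3, Mmp10 and Mmp13, was the lowest (log2 fold change -0.63, interval -1.62 to 0.36). Adamts7, which cuts cartilage oligomeric matrix protein, had 238, 197 and 389 counts against 243, 324 and 268 (log2 fold change 0.02). The related Adamts12 had a log2 fold change of 0.28 and Adamts6 of -0.17.

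The inhibitors varied as much between tumors as the median gene did, and no Timp gene had an unadjusted p of at most 0.05. Their summed FPKM was 63.5 ± 9.66 in Tmem173fl/fl and 62.4 ± 3.25 in Tmem173iΔmye tumors (SD, n = 3 each). Timp2, the most abundant, had 1787, 2112 and 3023 counts in Tmem173fl/fl replicates 1, 2 and 3 and 1863, 2181 and 2016 in Tmem173iΔmye replicates 1, 2 and 3. All Tmem173iΔmye tumors lay inside the Tmem173fl/fl range (log2 fold change -0.19, interval -0.60 to 0.22). Timp1, the inflammation-induced member on the X chromosome, had 210, 184 and 240 counts against 268, 252 and 181 in the same order. Tmem173iΔmye held the highest and the lowest tumor, with a log2 fold change of 0.14 (interval -0.33 to 0.61). Timp3, the member bound to the matrix and the one that also inhibits Adamts enzymes, had 1086, 1615 and 1375 counts against 1253, 1628 and 2052 (log2 fold change 0.26, interval -0.26 to 0.78). Tmem173iΔmye replicate 3 was highest, and the groups otherwise overlapped. Timp4 had 70, 26 and 64 counts against 32, 40 and 69 (log2 fold change -0.18, interval -1.25 to 0.88). The intervals of Timp1, Timp2 and Timp3 lie between log2 fold changes of -1 and 1, and that of Timp4 passes -1. Timp1, Timp3 and Timp4 lie within the synapsin genes Syn1, Syn3 and Syn2 on the opposite strand, and 21.3% of the exonic bases of Timp3 overlap Syn3, which had 13 to 33 counts.

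Summed Mmp FPKM was 639, 580 and 700 in Tmem173fl/fl replicates 1, 2 and 3 and 1045, 587 and 491 in Tmem173iΔmye replicates 1, 2 and 3. Divided by summed Timp FPKM, this gave 11.9, 9.12 and 9.58 against 17.7, 8.94 and 7.88. The ratio was highest in Tmem173iΔmye replicate 1 and lowest in the other tumors of that group, so the groups overlapped. Without Mmp7 the ratio was 3.39, 4.71 and 3.23 against 5.53, 3.77 and 4.11. These are ratios of transcript levels, and neither protein nor activity was measured.

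The 14 members below a mean FPKM of 0.5 were Mmp1b, Mmp16, Mmp17, Mmp21, Mmp24, Mmp27, Adamts3, Adamts5, Adamts8, Adamts13, Adamts16, Adamts18, Adamts19 and Adamts20. Their counts ranged from 0 to 46 in a tumor. The groups did not overlap for 2 of the 14 (14.3%), both lower in Tmem173iΔmye, against 4.18% of all genes with any count below that level. That background takes in genes with too few reads for the groups to separate, so the shares are not like for like. Adamts16 had 46, 41 and 30 counts in Tmem173fl/fl replicates 1, 2 and 3 and 19, 19 and 16 in Tmem173iΔmye replicates 1, 2 and 3. In a fit of all genes without the limit on FPKM, its log2 fold change was -1.12 (unadjusted p = 0.018, adjusted p = 0.767 from edgeR). Mmp24 (MT5-MMP), a membrane-type enzyme known from neurons, had 7, 8 and 7 counts against 4, 2 and 6 (log2 fold change -0.86, adjusted p = 0.767). Of the exonic bases of Mmp24, 13.6% overlap BC029722 on the opposite strand, which had 80 to 155 counts. Mmp17 had 19 to 45 counts, Adamts5 (aggrecanase-2) 12 to 46, Adamts3 9 to 38, Adamts13, which cuts von Willebrand factor, 1 to 22, and Adamts8 1 to 21. Adamts19 had 2 to 9 counts, Adamts20 1 to 6, Mmp16 and Mmp27 0 to 4, Adamts18 and Mmp1b 0 to 3, and Mmp21 0 or 1. For the members with at most 9 counts in a tumor, the depth allows no statement on a difference.

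Other genes of the system were described from lists. Of 12 tested activators of matrix proteases, among them plasminogen activators, their receptor and cathepsins, 8 had log2 fold changes above 0 (median 0.14), and none passed the study's limits. Bsg (CD147), an inducer of Mmp genes, was higher in every Tmem173iΔmye tumor, with 9535 to 10771 counts against 11229 to 13470 (log2 fold change 0.30, SE 0.15). It was the 1 gene of the list whose groups did not overlap (8.33%, against 6.14% of all genes). Plaur, the urokinase receptor, had 1564 counts in Tmem173iΔmye replicate 1 and 448 to 611 in the other tumors (log2 fold change 0.69).

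Of the inhibitors of other protease classes, 3 of 7 listed were tested. Each of the 3 had a log2 fold change above 0 (median 0.82), and none passed the study's limits. An unadjusted p of at most 0.05 was reached by 2 (66.7%, against 6.14% of all genes), with an adjusted p of 0.742 for both. A share of 3 genes, from a list chosen with earlier results known, is a description alone. Serpine2 (protease nexin-1) had 314, 256 and 313 counts in Tmem173fl/fl replicates 1, 2 and 3 and 839, 391 and 456 in Tmem173iΔmye replicates 1, 2 and 3 (log2 fold change 0.92, unadjusted p = 0.0131 from edgeR). Tfpi2, which inhibits plasmin, had 29, 29 and 40 counts against 77, 49 and 48 (log2 fold change 0.82, unadjusted p = 0.0383). For both genes the groups did not overlap (66.7% of the tested list, against 6.14% of all genes). Cst3, encoding the cathepsin inhibitor cystatin C, had 1673 to 2691 counts against 2313 to 3399 and overlapped (log2 fold change 0.35).

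Of 18 tested matrix substrates, 16 had log2 fold changes above 0 (median 0.25) and none passed the study's limits. Bgn, encoding the proteoglycan biglycan, had 1682, 1686 and 1947 counts in Tmem173fl/fl replicates 1, 2 and 3 and 3209, 3236 and 2283 in Tmem173iΔmye replicates 1, 2 and 3. Its groups did not overlap (log2 fold change 0.70, unadjusted p = 0.00227 from edgeR, adjusted p = 0.742), which held for 5.56% of the list and 6.14% of all genes. Of 12 tested ADAMTS-like genes and ADAM proteases, 9 had log2 fold changes above 0 (median 0.08), and none had an unadjusted p of at most 0.05. Among the cell type lists, fibroblast markers had sums of 64.3 to 108 FPKM in Tmem173fl/fl and 77.9 to 108 in Tmem173iΔmye tumors (7 of 9 above 0, median 0.03). Of the 9, 1 (11.1%, against 1.26% of all genes) passed the study's limits, higher, and 2 (22.2%, against 6.14%) had an unadjusted p of at most 0.05. The marker lists were chosen with earlier results of these data known, so their shares are descriptions and no test. Dpt, encoding dermatopontin, had 118 to 170 counts against 271 to 368 without overlap (log2 fold change 1.08, unadjusted p = 8.12e-04 from edgeR), and Thy1 had a log2 fold change of 0.69 (unadjusted p = 0.0392). The adjusted p was 0.742 for both genes, and Dpt was the 1 marker of the list without overlap (11.1%, against 6.14% of all genes). Smooth muscle markers had sums of 115 to 167 and 94.2 to 154 FPKM (2 of 8 above 0, median -0.51), with Des, the 1 gene of the list past the study's limits (12.5%, against 0.864% of all genes), at a log2 fold change of -1.01. Endothelial markers had sums of 18 to 20.2 and 19.2 to 26.8 FPKM (6 of 8 above 0, median 0.25), and 10 of 10 epithelial markers were above 0 (median 0.14). No marker of these 4 lists was at 0 in any tumor, and the part of cell makeup in the members' levels was not tested.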

How the data were processed

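The study prepared poly(A)-selected libraries from tumor RNA. According to the submitters' processing notes, CASAVA 1.8, fastp, HISAT2 2.0.5, featureCounts 1.5.0-p3 and DESeq2 1.20.0 were used with GRCm38. The table deposited by the authors gives raw counts for each gene and FPKM values that follow from the counts, gene lengths, median-of-ratios size factors and the geometric mean of the totals. The same table holds the authors' own fold changes and p-values, which were not used. The strand setting of the counting is not given in the sources used here.

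The quasi-likelihood test of edgeR 4.0.16 under R 4.3.3 was run on these counts with TMM scaling and group alone in the model. Benjamini-Hochberg adjustment ran over the 16426 genes averaging 0.5 FPKM or more. SE was obtained from the size of the log2 fold change and the square root of F, and intervals are 95% intervals on the t scale of the fit. The alternatives changed the filter (none, or a mean of 1 FPKM), the genes (protein-coding alone) or the scaling (median-of-ratios size factors, totals without the 20 highest genes). Others used the replicate number as a block, Y-linked reads as a covariate, DESeq2 1.42.0, limma 3.58.1 on log2(FPKM + 1) and log2(FPKM + 0.1), or left out each tumor in turn. The scripts were tested on simulated data. Totals of 15329810 to 16533732 counts limit genes of a few counts. The floor is 3 counts, which covers counting error alone.

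Every tested member is named. Counts in every tumor are given for the Timp genes, the 5 most abundant Mmp and Adamts genes, members with an unadjusted p of at most 0.05 and members whose groups do not overlap; counts for Mmp3, Mmp13 and Mmp9 were added after their values were seen. From a further list, at most the 3 genes with the lowest p-values are given with values, and some lists are given by counts and sums alone. In addition, 1 gene of a list is not reported here. The members and lists were chosen with earlier results of these data known. Overlaps of exons were taken from GENCODE M21, whose coordinates equal those of the table for 44 of 45 members.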

Additional observations from a re-analysis of the deposited data

How the results depend on the processing

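No member had an adjusted p under 0.05 in any alternative that was run. The number of genes past the study's limits, 349, was 872 without a filter, 209 with protein-coding genes alone, 211 with Y-linked reads as a covariate, 131 with limma on log2(FPKM + 1), and 218 to 636 when 1 tumor was left out. Members past the limits were 2 higher and 1 lower without a filter (Mmp3, Mmp25 and Adamts16), 2 higher with DESeq2 (Mmp3 and Mmp25), and 0 to 3 higher and 0 to 1 lower when 1 tumor was left out. Without Tmem173iΔmye replicate 2 these were Mmp3, Mmp10 and Mmp13, higher, and Adamts17 (-1.09), lower. The Mmp median was 0.05 to 0.51 and the Adamts median 0.02 to 0.30 when 1 tumor was left out, and the Adamts median was 0.04 without a filter. The Timp median was 0.13 at a mean FPKM of at least 1 and -0.07 to 0.11 when 1 tumor was left out. The cause of these shifts was not tested.

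The log2 fold change of Mmp7 turned to -0.23 with Y-linked reads as a covariate, -0.02 with limma at either pseudocount and -0.01 with the replicate block. That of Mmp28 was -0.04 with the covariate, and those of Adamts7 and Adamts14 were -0.01 and -0.02 with totals without the 20 highest genes. Leaving out 1 tumor turned the direction of Mmp7 (-0.49 to 0.40), Mmp8 (-0.67 to 0.94), Mmp9 (-0.56 to 0.77), Mmp11 (-0.22 to 0.11), Mmp12 (-0.40 to 0.20), Mmp14 (-0.58 to 0.09), Mmp15 (-0.31 to 0.07), Mmp28 (-0.06 to 0.15), Adamts1 (-0.20 to 0.60), Adamts6 (-0.34 to 0.02), Adamts7 (-0.14 to 0.30), Adamts14 (-0.24 to 0.51) and Timp4 (-0.57 to 0.09).

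With the replicate block, 0 genes had an adjusted p under 0.05, 251 genes were higher and 126 lower past the limits, and the smallest adjusted p of a member was 0.472. Deviations of same-numbered tumors correlated at 0.315, 0.00846 and 0.154 across genes, and Tmem173fl/fl replicate 2 correlated best with Tmem173iΔmye replicate 3 (0.223), so the tumors share a number and no pairing was assumed.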
